A study of Mus musculus with 6 samples.

Results

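The genes described here are the Wnt ligands (Wnt), their Frizzled (Fzd) and LRP (Lrp5, Lrp6) receptors, the secreted inhibitors of the Sfrp and Dkk families, Axin1 and Axin2, and the TCF/LEF factors that act in the nucleus. They were picked by a rule on gene names, and the rule was set with earlier results of these data known. The name rule found 64 probes for 45 genes, out of 27962 gene names on the array. Each gene is represented by the probe with the highest mean level over the 6 arrays. The 45 genes comprise 19 ligands, 12 receptors, 8 secreted inhibitors, 2 Axin genes and 4 TCF/LEF factors.

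Levels were measured on 6 single-colour Agilent arrays of total RNA from J1 cells, a mouse embryonic stem (ES) cell line. Cells were given siRNA that targets no gene (NT), Thoc2 or Thoc5, with 2 arrays per group, and RNA was taken 96 hours later from all 3 groups. J1 cells were maintained in ESGRO medium and were in M10 medium at the time of transfection. Both genes code for parts of THO, a nuclear complex that packages new mRNA for export, and total RNA measures the amount of an mRNA, not its place in the cell. The knockdowns were partial and transient: the siRNAs left 55.0% of the NT level of Thoc2 and 41.4% of that of Thoc5. The labels do not say whether the 2 arrays of a group came from separate cultures, so p-values measure the spread between arrays.

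Wnt proteins are lipid-modified secreted ligands that bind a Frizzled receptor and an LRP co-receptor on the receiving cell. Binding recruits Axin to the membrane, which stops the destruction complex from marking beta-catenin for degradation, and beta-catenin then enters the nucleus and acts on target genes with TCF/LEF factors. In mouse ES cells this branch supports self-renewal, in large part by relieving repression by Tcf7l1, and some ligands also signal without beta-catenin.

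Levels below are log2 values of the processed signal, less the 75th percentile of the same array, so 0 is a probe as bright as that percentile. Each probe has its own brightness, so levels are compared between arrays for 1 gene and not between genes. A probe counted as well above background when the scanner software called it so. Of the 45 genes, 30 were well above background on all 6 arrays, 14 on some of them and 1, Wnt10b, on none. For comparison, 54.0% of all gene names and 66.7% of these 45 were well above background on every array. All 4 TCF/LEF factors, both Axin genes, 10 of 12 receptors, 10 of 19 ligands and 4 of 8 secreted inhibitors met that standard.

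The 39 genes that were well above background on both arrays of at least 1 group were tested, within a limma fit of 19417 genes. Wnt10b (0 of 6 arrays), Wnt16 (3), Wnt2, Wnt2b, Wnt5a and Dkk2 (1 each) were not tested. A gene that entered through 1 bright group had to differ from a dim one, so counts over the 39 are set beside the same counts over all tested genes, which passed the same filter, and are descriptions. No gene of the 19417 passed the threshold, a Benjamini-Hochberg limma adjusted p under 0.05, in any of the comparisons, and none of the 39 did. The words higher and lower below give the direction of a measured difference and not a call.

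The probe sequences are shown first because several results rest on a single probe or on a pair of probes for 1 gene. Each line gives the first 30 of a probe's 60 bases, 5′ to 3′, with the position of the whole probe in mouse build mm7 as the files state it. The files do not say which exon a probe matches. Wnt6, Wnt10a, Wnt3 and Wnt4 were higher in both knockdowns, Wnt9a with Thoc5 siRNA, and Dkk4 with Thoc2 siRNA, while Sfrp4 and Lrp5 were lower in both. The Fzd7 pair is shown because its probes gave different directions with Thoc2 siRNA, and Fzd7 was picked for this after its values were seen.
Wnt6 probe A_52_P415155, chr1:75024567-75024626, plus strand: ttcctcagaattactgggatggatgggtga
Wnt6 probe A_51_P482571, chr1:75024467-75024532, plus strand: attcccctgaaaggccctttgctagttctg
Wnt10a probe A_51_P171616, chr1:75043739-75043798, plus strand: tttcacttaacagatatttatttttgcgct
Wnt3 probe A_52_P258116, chr11:103925136-103925195, plus strand: attgtgcgactggatccattcatcgaagtc
Wnt3 probe A_52_P361534, chr11:103926765-103926824, plus strand: atttaataatagtacatgagcgcattgtaa
Wnt4 probe A_51_P130475, chr4:136674216-136674784, plus strand: tcttcacaacaacgaggctggcaggaaggc
Wnt9a probe A_51_P375453, chr11:59414739-59414798, plus strand: aaacgtctgccggctggtttgtttctgtat
Lrp5 probe A_51_P364168, chr19:3479676-3479736, minus strand: ggtttttaacaagtgagaaatgtgagcggt
Fzd7 probe A_52_P552665, chr1:59737506-59737565, plus strand: aagggaaggtgaacttcaaagtgattctgg
Fzd7 probe A_51_P142107, chr1:59735681-59735740, plus strand: agccccgactttacagtcttcatgatcaag
Sfrp4 probe A_51_P457196, chr13:18999998-19000057, plus strand: cacagttgtctgtgtgcatactgtgtaaga
Dkk4 probe A_51_P125663, chr8:21412309-21412368, plus strand: ccagtaacagacaacattcaaggctaagag
The Wnt4 probe is given a span of genome several times its own length. The Wnt6 and Wnt3 pairs lie in the same gene, so agreement between probes of a pair is a repeat of the measurement and not another sample.

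Promoters of ligands that were higher in both knockdowns are shown as the 250 bases before the annotated start, from RefSeq on assembly GRCm38.p6, a different build from that of the probes. The promoter table matched 30 of the 45 genes with 38 starts. Wnt10a was not among them, so its promoter was not searched. The search used the TCF/LEF core CTTTG followed by 2 letters that are each A or T, on both strands, and matches are in capitals. The Dkk1 promoter is added because it held 2 matches.
Wnt6 promoter, chr1:74771642-74771891, plus strand: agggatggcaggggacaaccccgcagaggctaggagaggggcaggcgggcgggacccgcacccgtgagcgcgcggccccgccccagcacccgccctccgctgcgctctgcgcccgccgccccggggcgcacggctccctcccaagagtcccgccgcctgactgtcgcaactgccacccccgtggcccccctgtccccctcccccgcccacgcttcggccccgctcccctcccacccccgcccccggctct
Wnt3 promoter, chr11:103773925-103774174, plus strand: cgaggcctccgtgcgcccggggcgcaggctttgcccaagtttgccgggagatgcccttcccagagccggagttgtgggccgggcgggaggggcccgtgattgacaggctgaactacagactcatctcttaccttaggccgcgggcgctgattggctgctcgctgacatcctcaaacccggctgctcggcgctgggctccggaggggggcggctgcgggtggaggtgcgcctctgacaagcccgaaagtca
Wnt4 promoter, chr4:137277385-137277634, plus strand: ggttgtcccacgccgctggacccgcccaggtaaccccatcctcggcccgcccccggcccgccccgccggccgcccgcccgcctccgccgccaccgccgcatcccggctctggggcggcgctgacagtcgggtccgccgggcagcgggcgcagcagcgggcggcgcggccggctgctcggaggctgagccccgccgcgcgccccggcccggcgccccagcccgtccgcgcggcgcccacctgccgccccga
Dkk1 promoter, chr19:30549497-30549746, minus strand: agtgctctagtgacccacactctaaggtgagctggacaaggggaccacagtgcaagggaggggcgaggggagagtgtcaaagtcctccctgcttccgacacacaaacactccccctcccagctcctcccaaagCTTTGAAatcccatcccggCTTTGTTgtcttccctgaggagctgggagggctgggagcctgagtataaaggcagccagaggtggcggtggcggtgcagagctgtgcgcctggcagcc
No match lay in the Wnt6, Wnt3 or Wnt4 window. A match was found in 6 of the 38 promoters (15.8%), those of Dkk1, Fzd7, Lef1, Tcf7l2, Wnt11 and Wnt5b, against 14.8% of all 32851 promoters of the same length. The Dkk1 matches began 117 and 98 bases before the start. The promoters of this family were richer in G and C than the table as a whole, with a median of 67.4% against 52.4%, and held a median of 21 CpG pairs against 6. A match is a run of letters and not a measured binding site.

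Among the 14 tested ligands, 4 were higher on all 4 knockdown arrays than on both NT arrays: Wnt6, Wnt10a, Wnt3 and Wnt4. Of all tested genes 14.2% were higher by that count. Wnt8b, which entered the test only through its bright Thoc2 arrays, was higher there and is counted below for that knockdown. Wnt9a was higher with Thoc5 siRNA. By group, 5 of 14 tested ligands had an unadjusted limma p under 0.05 and were higher in each knockdown, and 0 were lower, where 8.07% of all tested genes were higher at that mark with Thoc2 siRNA and 7.44% with Thoc5 siRNA. In each knockdown 9 of the 14 lay above 0 (55.6% of all tested genes did with Thoc2 siRNA and 43.2% with Thoc5 siRNA), with a median difference of 0.62 for Thoc2 siRNA and 0.20 for Thoc5 siRNA, beside medians of 0.06 and -0.09 over all tested genes. With normexp background correction, which lifts dim probes, all 14 lay above 0 in both knockdowns, with medians of 1.21 and 1.06 beside 0.29 and 0.25 over all tested genes. The knockdown arrays were dimmer than the NT arrays, with a 75th percentile of processed signal from 306 to 738 against 817 and 905. The part of this in the normexp values was not tested.

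**Figure D1:**
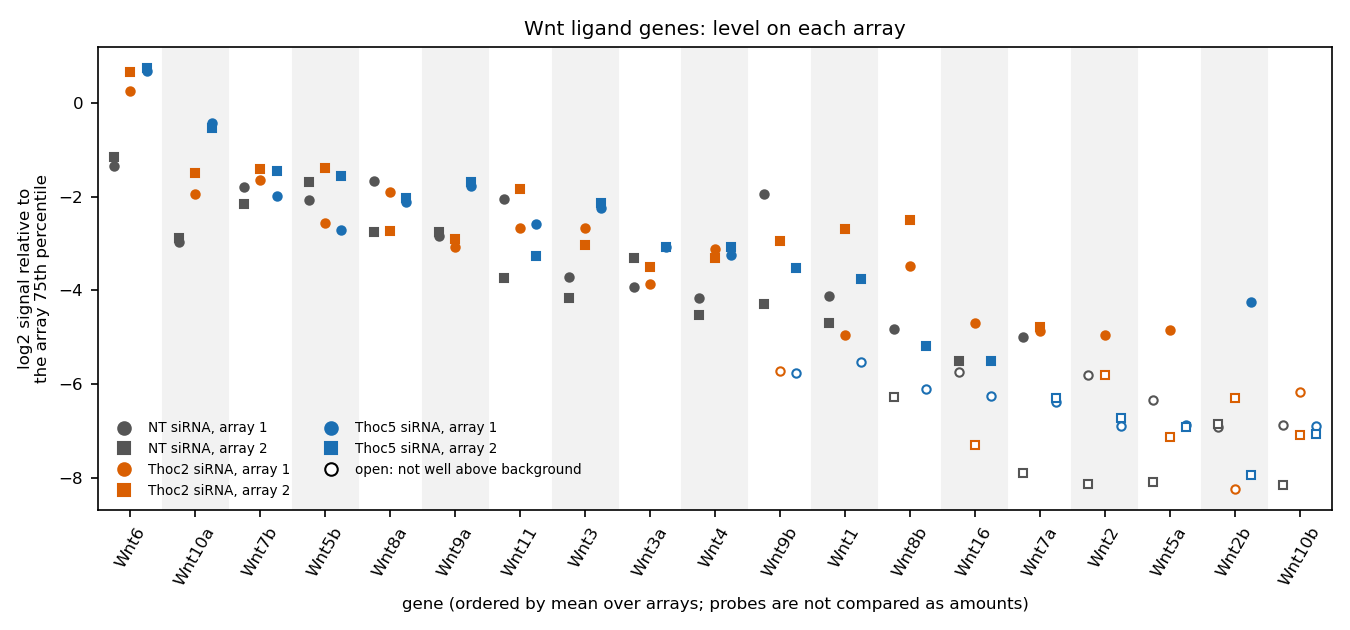
Level of each of the 19 Wnt ligand genes on the 6 arrays (log2 signal relative to the array's 75th percentile), by siRNA group, with circles and squares for arrays 1 and 2 and open symbols for probes not well above background. The knockdown points of Wnt6, Wnt10a, Wnt3 and Wnt4 lie above both NT points, and most points of Wnt10b, Wnt2b, Wnt5a and Wnt2 are open.

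Wnt6 is a ligand known from epithelial and extraembryonic tissues. It stood at -1.34 and -1.16 under NT, 0.25 and 0.66 under Thoc2 siRNA, and 0.69 and 0.75 under Thoc5 siRNA. The NT arrays lay more than 1 log2 unit below the lowest knockdown array, and the knockdown groups did not overlap each other either. The difference from NT was 1.70 ± 0.20 with Thoc2 siRNA (SE of the limma fit, here and below, 2 arrays per group; limma adjusted p = 0.209) and 1.97 ± 0.20 with Thoc5 siRNA (adjusted p = 0.0999). These are 3.25-fold and 3.91-fold. The other Wnt6 probe gave 1.15 and 1.40, in the same direction.

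Wnt10a, the neighbour of Wnt6 on chromosome 1, is a ligand of skin and tooth development. It stood at -2.97 and -2.88 under NT, -1.95 and -1.50 under Thoc2 siRNA, and -0.42 and -0.53 under Thoc5 siRNA. The 3 groups did not overlap, with NT lowest and Thoc5 highest. The difference from NT was 1.20 ± 0.21 with Thoc2 siRNA (limma adjusted p = 0.217) and 2.45 ± 0.21 with Thoc5 siRNA (adjusted p = 0.0999), the latter 5.46-fold. Thoc5 siRNA exceeded Thoc2 siRNA by 1.25 ± 0.21 (limma adjusted p = 0.448). Among the 39 tested genes Wnt10a had the largest difference between Thoc5 siRNA and NT.

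Wnt3 is a ligand that the early embryo needs to form the primitive streak. Its levels were -3.70 and -4.17 under NT, -2.66 and -3.02 under Thoc2 siRNA, and -2.24 and -2.13 under Thoc5 siRNA. The order of the groups was that of Wnt10a, again without overlap. The difference from NT was 1.09 ± 0.24 with Thoc2 siRNA (limma adjusted p = 0.230) and 1.75 ± 0.24 with Thoc5 siRNA (adjusted p = 0.0999), and the second probe gave 0.90 and 1.68. Thoc5 siRNA was above Thoc2 siRNA by 0.66 ± 0.24 (limma adjusted p = 0.532). Of 5 markers of primitive streak and mesoderm, Eomes, Kdr and Mixl1 were above NT on all 4 knockdown arrays and Mesp1 below it. The fifth, T, overlapped NT in both knockdowns, with differences of 0.20 (Thoc2 siRNA) and -0.59 (Thoc5 siRNA). Eomes differed by 0.39 and 0.24, and Mesp1 by -0.14 and -0.65. Of all tested genes 14.2% were above and 16.3% below by that count. Mixl1 was well above background on 1 array, a Thoc2 array, so its other values have no order. Kdr, a receptor of early mesoderm, was at -3.87 and -3.92 under NT, -2.93 and -2.47 under Thoc2 siRNA, and -2.78 and -2.52 under Thoc5 siRNA. The part of such cells in the Wnt3 values was not tested.

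Wnt4, a ligand of kidney and gonad development, was the fourth ligand of this kind. Its levels were -4.15 and -4.53 under NT, -3.11 and -3.30 under Thoc2 siRNA, and -3.25 and -3.07 under Thoc5 siRNA. The knockdown groups overlapped each other and lay apart from NT. The difference was 1.14 ± 0.20 with Thoc2 siRNA (limma adjusted p = 0.220) and 1.18 ± 0.20 with Thoc5 siRNA (adjusted p = 0.106).

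Wnt9a and Wnt8b differed between the knockdowns. Wnt9a, which acts in joint and bone development, stood at -2.83 and -2.75 under NT, -3.08 and -2.91 under Thoc2 siRNA, and -1.76 and -1.69 under Thoc5 siRNA. The Thoc5 arrays lay above and the Thoc2 arrays below NT. A second Wnt9a probe was well above background on 1 of 6 arrays, a Thoc2 array, and was not tested, so the Thoc5 values rest on 1 probe. The difference from NT was 1.07 ± 0.15 with Thoc5 siRNA (limma adjusted p = 0.0999) and -0.20 ± 0.15 with Thoc2 siRNA, the latter of opposite sign with normexp background correction. Wnt8b, a ligand of the developing forebrain, was at -4.81 and -6.28 under NT, -3.47 and -2.50 under Thoc2 siRNA, and -6.10 and -5.19 under Thoc5 siRNA. It was well above background on both Thoc2 arrays and on 1 array of each other group. Its difference from NT was 2.57 ± 0.67 with Thoc2 siRNA (limma adjusted p = 0.254), and ranged from 1.83 to 3.30 as single arrays were left out. Wnt8b was tested only because both Thoc2 arrays were well above background, so its direction there is no separate result. With Thoc5 siRNA it was -0.09 ± 0.67, a sign that normexp background correction turned.

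Wnt3a, the ligand most used to activate beta-catenin in culture, was at -3.93 and -3.31 under NT, -3.86 and -3.50 under Thoc2 siRNA, and -3.07 and -3.07 under Thoc5 siRNA. The Thoc5 arrays lay above both other groups, while the NT and Thoc2 arrays overlapped. The difference from NT was -0.06 with Thoc2 siRNA, with a 95% interval from -0.79 to 0.67, and 0.55 with Thoc5 siRNA, from -0.18 to 1.28. The Thoc5 interval reaches the difference measured for Wnt4 (1.18), and the Thoc2 interval does not reach those of Wnt6, Wnt10a, Wnt3 or Wnt4.

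The 7 remaining tested ligands gave no clear order. Wnt9b ranged from -5.76 to -1.95, Wnt1 from -5.53 to -2.68 and Wnt7a from -7.91 to -4.77, and in each of them the arrays of at least 1 group stood far apart. Wnt11 (-3.73 to -1.83), Wnt5b (-2.72 to -1.38), Wnt8a (-2.76 to -1.66) and Wnt7b (-2.15 to -1.42) were well above background on all arrays, and their differences from NT were at most 0.64 in size. Wnt7a was not well above background with Thoc5 siRNA and was at least 1.57-fold lower there than with Thoc2 siRNA, a bound that sets the dim arrays at the lowest signal well above background or at their own, whichever was higher. Wnt7a entered the test only through its Thoc2 arrays, so that direction is no separate result.

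Several ligand genes sit side by side in the genome, and their levels on the same arrays can be read together. The probes of Wnt6 and Wnt10a lie 19.2 kb apart on chromosome 1, those of Wnt3a and Wnt9a 85.0 kb apart and those of Wnt9b and Wnt3 88.5 kb apart on chromosome 11, and those of Wnt10b and Wnt1 20.8 kb apart on chromosome 15 (mm7). In the RefSeq gene table no other protein-coding gene starts between the members of any of the 4 pairs. Both members of the Wnt6 and Wnt10a pair were higher in both knockdowns. In the Wnt3a and Wnt9a pair both genes lay above NT on the Thoc5 arrays, by 0.55 and 1.07. With Thoc2 siRNA they differed by -0.06 and -0.20. In the Wnt3 and Wnt9b pair Wnt3 was higher in both, while Wnt9b was at -1.95 and -4.28 with NT siRNA and overlapped NT in both knockdowns. Wnt10b was dim throughout, well above background on 0 of 6 arrays, and Wnt1 overlapped NT in both knockdowns.

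**Figure D2:**
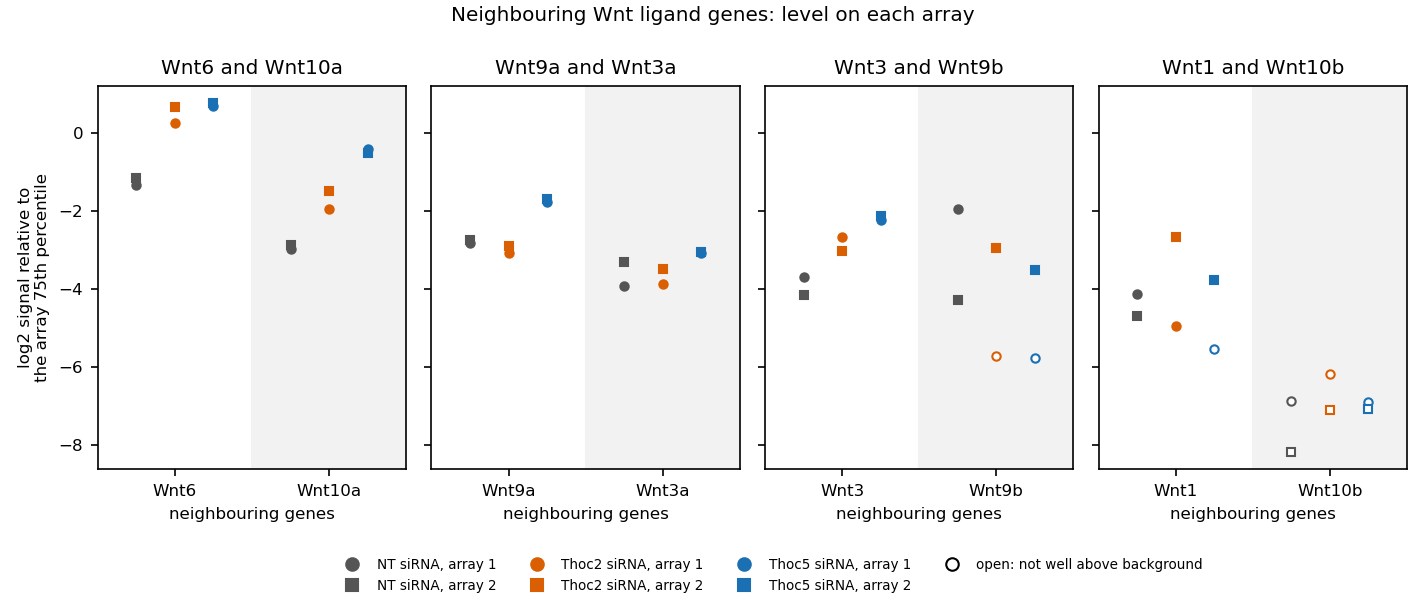
Level on each array (log2 signal relative to the array's 75th percentile) of the 4 pairs of neighbouring Wnt genes, symbols as in the ligand plot, with open symbols for probes not well above background. Both genes are higher in the knockdowns in the Wnt6 and Wnt10a panel, and in the Wnt3 and Wnt9b panel only the Wnt3 points separate by group. In the Wnt9a and Wnt3a panel the Thoc5 points of both genes lie above NT.

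Among the receptors no common direction was measured: 5 of 12 lay above 0 with Thoc2 siRNA and 6 of 12 with Thoc5 siRNA, with medians of -0.26 and -0.02 (0.42 and 0.28 with normexp background correction, where 7 and 8 lay above 0). Lrp5 and Fzd9 were lower in both knockdowns and Fzd5 higher in both, with no overlap with NT. Fzd6 was higher with Thoc5 siRNA alone. In each knockdown 2 receptors were lower and 1 higher at an unadjusted limma p under 0.05. Of all tested genes 6.55% (Thoc2 siRNA) and 12.1% (Thoc5 siRNA) were lower at that mark, and 8.07% and 7.44% higher.

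Lrp5, a co-receptor that Wnt brings together with a Frizzled, stood at -0.61 and -0.75 under NT, -1.41 and -1.23 under Thoc2 siRNA, and -1.95 and -1.60 under Thoc5 siRNA. The 3 groups did not overlap, with Thoc5 lowest. The difference was -0.65 ± 0.19 with Thoc2 siRNA (limma adjusted p = 0.277) and -1.10 ± 0.19 with Thoc5 siRNA (adjusted p = 0.107), which left 46.7% of the NT level. Lrp6, its close relative, was at -3.26 and -3.37 under NT, -5.92 and -3.28 under Thoc2 siRNA, and -3.26 and -2.65 under Thoc5 siRNA. Its difference of -1.28 ± 0.91 with Thoc2 siRNA rests on array 1, where the probe was not well above background, and was 0.04 without that array.

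Fzd9 was at 0.07 and 0.34 under NT, -0.48 and -0.36 under Thoc2 siRNA, and -0.81 and -0.37 under Thoc5 siRNA. Both knockdowns lay below NT and overlapped each other, at -0.63 ± 0.22 (limma adjusted p = 0.322) and -0.79 ± 0.22 (adjusted p = 0.174). Fzd5, which acts in the yolk sac and eye, was at -0.41 and -0.69 under NT, -0.09 and -0.02 under Thoc2 siRNA, and -0.33 and -0.25 under Thoc5 siRNA. Its differences were smaller, at 0.49 ± 0.16 (limma adjusted p = 0.304) and 0.26 ± 0.16 (adjusted p = 0.466). Fzd6, a planar polarity receptor, was at -3.01 and -3.04 under NT, -2.75 and -3.26 under Thoc2 siRNA, and -2.36 and -2.49 under Thoc5 siRNA. Both Thoc5 arrays lay above NT, while the Thoc2 arrays lay on either side of it, and the Thoc5 difference was 0.60 ± 0.22 (limma adjusted p = 0.245).

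Fzd10 and Fzd7 show what a second probe can add. Fzd10 was at 1.34 and 1.57 under NT, 0.98 and 1.13 under Thoc2 siRNA, and 1.22 and 1.19 under Thoc5 siRNA. That probe placed both knockdowns below NT (-0.40 and -0.26), whereas its other probe, well above background on every array, placed them above (0.24 and 0.19), so no direction is given for Fzd10. The brighter Fzd7 probe was at 0.64 and 0.92 under NT, -0.97 and 1.18 under Thoc2 siRNA, and 0.73 and 0.93 under Thoc5 siRNA, with a single low value on array 1 of Thoc2 siRNA. The dimmer Fzd7 probe was at -4.49 and -4.72 under NT, -3.92 and -4.04 under Thoc2 siRNA, and -3.92 and -4.19 under Thoc5 siRNA. Here all 4 knockdown arrays were above NT, by 0.62 and 0.55, against -0.68 and 0.05 for the brighter probe. Fzd1, Fzd2, Fzd3, Fzd4 and Fzd8, the other receptors, differed from NT by between -0.67 and 0.82.

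**Figure D3:**
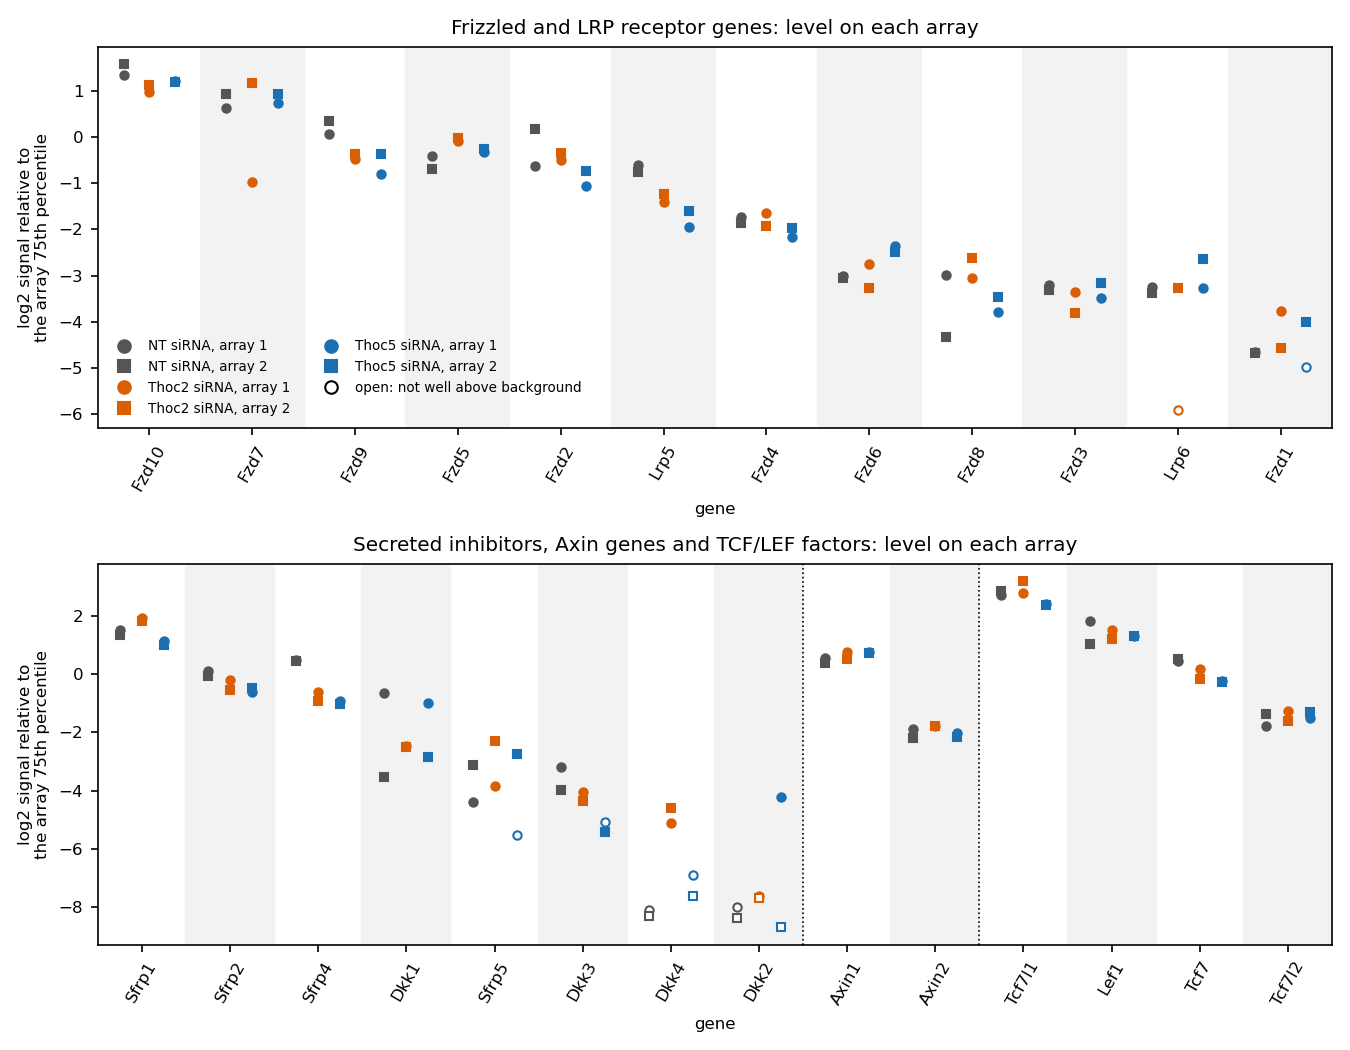
Level on each array (log2 signal relative to the array's 75th percentile) of the 12 receptor genes (top) and of the 8 secreted inhibitors, 2 Axin genes and 4 TCF/LEF factors (bottom, split by dotted lines), symbols as in the ligand plot. Lrp5, Fzd9, Sfrp4 and Tcf7 lie lower on all 4 knockdown arrays than on the NT arrays, and Dkk1 spreads widely within the NT and Thoc5 groups.

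The secreted inhibitors did not move as a group. Sfrp4 was lower in both, Dkk3 lower with Thoc5 siRNA, Dkk4 higher with Thoc2 siRNA, and Sfrp1 higher with Thoc2 siRNA and lower with Thoc5 siRNA. Of 7 tested inhibitors 3 lay above 0 with Thoc2 siRNA and 2 with Thoc5 siRNA (5 and 4 with normexp background correction), and 1 lay above 0 when Thoc5 was set against Thoc2 siRNA, where 35.2% of all tested genes did. In that last comparison 3 of the 7 were lower at an unadjusted limma p under 0.05, where 6.98% of all tested genes were. Dkk4, 1 of the 3, entered the test only through its bright Thoc2 arrays, so its direction there is no separate result.

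Sfrp4, which binds Wnt proteins outside the cell, was at 0.49 and 0.48 under NT, -0.60 and -0.93 under Thoc2 siRNA, and -0.92 and -1.005 under Thoc5 siRNA. The NT arrays were nearly equal and lay more than 1 log2 unit above every knockdown array. The difference was -1.24 ± 0.17 with Thoc2 siRNA (limma adjusted p = 0.209) and -1.45 ± 0.17 with Thoc5 siRNA (adjusted p = 0.0999), leaving 42.2% and 36.7% of the NT level. Sfrp2, of the same family, was at 0.10 and -0.07 under NT, -0.19 and -0.52 under Thoc2 siRNA, and -0.61 and -0.48 under Thoc5 siRNA. It was lower on every knockdown array, by -0.37 ± 0.19 and -0.56 ± 0.19 on average (limma adjusted p = 0.430 and 0.216).

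Sfrp1 differed between the knockdowns. It was at 1.55 and 1.35 under NT, 1.95 and 1.84 under Thoc2 siRNA, and 1.14 and 1.02 under Thoc5 siRNA. The Thoc2 arrays lay above and the Thoc5 arrays below NT, at 0.44 ± 0.16 and -0.37 ± 0.16. The difference of Thoc5 from Thoc2 siRNA was -0.81 ± 0.16 (limma adjusted p = 0.448), and the second Sfrp1 probe gave -0.95 for it. Against NT that probe gave 0.17 and -0.78.

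Dkk proteins bind LRP co-receptors, except Dkk3, whose role in Wnt signalling is less clear. Dkk4 stood well above background on both Thoc2 arrays (-5.12 and -4.62) but on 0 of the NT arrays (-8.11 and -8.33) and 0 of the Thoc5 arrays (-6.90 and -7.64). Thoc2 siRNA gave a level at least 2.55-fold higher than NT and at least 1.77-fold higher than Thoc5 siRNA. The limma adjusted p-values, 0.209 and 0.413, belong to fitted differences that use the dim signals and not to these bounds. Dkk4 was tested only because both Thoc2 arrays were well above background, so its direction there is no separate result. No fold is given between Thoc5 siRNA and NT, where both were dim. Dkk3 was at -3.20 and -3.98 under NT, -4.06 and -4.36 under Thoc2 siRNA, and -5.10 and -5.41 under Thoc5 siRNA. It was well above background on 1 of the 2 Thoc5 arrays, and its groups did not overlap. The difference was -0.62 ± 0.33 with Thoc2 siRNA and -1.67 ± 0.33 with Thoc5 siRNA (limma adjusted p = 0.120), and both turned to higher with normexp background correction, so its direction depends on how background is handled. Sfrp5 ranged from -5.54 to -2.28, with spreads within each group above 1 log2 unit.

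Sfrp4 and Dkk3 are also known as genes of fibroblasts, and some fibroblast markers were lower in the knockdowns as well. Of 8 fibroblast markers 4 (Col1a1, Col1a2, Pdgfrb and Thy1) were well above background on every array. Their summed linear level, all 8 together, was 2.53 and 1.98 under NT, 1.17 and 1.58 under Thoc2 siRNA, and 0.948 and 1.11 under Thoc5 siRNA. Of the 8, 3 (Col1a1, Pdgfrb and Thy1) were lower than NT on all 4 knockdown arrays, where 16.3% of all tested genes were. Thy1, a surface protein of fibroblasts and some other cells, was at 0.64 and 0.03 with NT siRNA and between -2.12 and -1.11 on the knockdown arrays. Without Thy1 the summed level of the other 7 was 0.975 and 0.960 under NT, 0.779 and 1.12 under Thoc2 siRNA, and 0.520 and 0.885 under Thoc5 siRNA, and the Thoc2 arrays then lay on either side of NT. Dcn was higher with Thoc2 siRNA on both arrays, by 1.06, Col1a2 (-0.11 and -0.23) overlapped NT in both knockdowns, and the remaining 3 were dim on at least 2 arrays. The part of these cells in the Sfrp4 and Dkk3 values was not tested, and in bulk RNA fewer cells of a type and less RNA per cell cannot be told apart.

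Dkk1, an LRP antagonist and a textbook target of beta-catenin, varied within groups more than between them. It was at -0.65 and -3.55 under NT, -2.48 and -2.50 under Thoc2 siRNA, and -1.001 and -2.84 under Thoc5 siRNA. The highest and the lowest of the 6 values were both NT arrays. The difference from NT was -0.39 with Thoc2 siRNA (95% interval -3.45 to 2.67) and 0.18 with Thoc5 siRNA (-2.88 to 3.24). The other Dkk1 probe had the same wide spread, from -5.94 to -3.06.

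Some markers of primitive endoderm, an extraembryonic cell type that ES cultures can form, were spread over the arrays in a like manner. Gata6, a transcription factor of that lineage, was at 0.78 and -2.35 under NT, -0.04 and -0.34 under Thoc2 siRNA, and 1.55 and -0.31 under Thoc5 siRNA. The summed linear level of the 7 markers was 5.84 and 0.753 under NT, 2.62 and 2.84 under Thoc2 siRNA, and 8.83 and 2.42 under Thoc5 siRNA. Of the 7, 6 were well above background on all arrays, and Afp on 1. As with Dkk1, the sums on array 1 of NT and of Thoc5 siRNA were the 2 highest, and array 2 of NT siRNA was the lowest. Foxa2 and Gata4 were also lowest on array 2 of NT siRNA but otherwise differed from Dkk1. For both, array 2 of Thoc2 siRNA (-0.23 and -3.10) lay above array 1 of NT siRNA (-0.40 and -3.20). The part of primitive endoderm cells in the Dkk1 values was not tested.

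**Figure D4:**
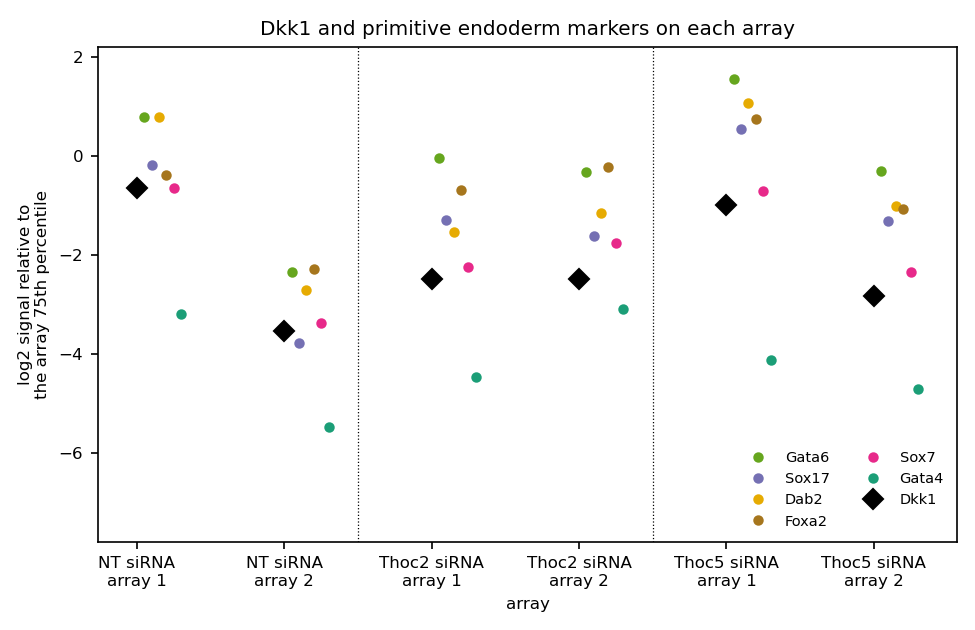
Level on each array (log2 signal relative to the array's 75th percentile) of Dkk1 (black diamonds) and of 6 primitive endoderm markers (coloured points, shifted sideways to be seen). Dkk1 was -0.65 on array 1 and -3.55 on array 2 of NT siRNA, where Gata6 was 0.78 and -2.35.

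Axin1, a scaffold of the destruction complex, was at 0.55 and 0.40 under NT, 0.78 and 0.54 under Thoc2 siRNA, and 0.77 and 0.75 under Thoc5 siRNA. Its differences from NT were 0.19 and 0.28, with 95% intervals from -0.25 to 0.62 and from -0.15 to 0.72. Axin2, a feedback inhibitor that beta-catenin induces in most tissues and a common readout of the pathway, was at -1.87 and -2.18 under NT, -1.77 and -1.79 under Thoc2 siRNA, and -2.02 and -2.14 under Thoc5 siRNA. The Thoc5 arrays lay within the NT range and the Thoc2 arrays just above it. The difference was 0.25 with Thoc2 siRNA (95% interval -0.21 to 0.71) and -0.06 with Thoc5 siRNA (-0.52 to 0.41), the latter above 0 with normexp background correction.

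The TCF/LEF factors read out beta-catenin at DNA. Tcf7 (also called TCF1), which mostly activates, was at 0.45 and 0.55 under NT, 0.17 and -0.14 under Thoc2 siRNA, and -0.24 and -0.27 under Thoc5 siRNA. The 3 groups did not overlap, and the order was NT, Thoc2, Thoc5 from high to low. The difference was -0.48 ± 0.17 (limma adjusted p = 0.323) and -0.75 ± 0.17 (adjusted p = 0.135), and the second Tcf7 probe gave -0.83 and -0.32.

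Tcf7l1 is a repressor that limits self-renewal genes in ES cells. On this array its probes carry the older gene name Tcf3, which now belongs to another gene. It was at 2.74 and 2.88 under NT, 2.82 and 3.22 under Thoc2 siRNA, and 2.44 and 2.38 under Thoc5 siRNA. The Thoc5 arrays were the lowest, while NT and Thoc2 overlapped. Thoc5 siRNA was below Thoc2 siRNA by 0.61 ± 0.19 in size (limma adjusted p = 0.509) and differed from NT by -0.40 (95% interval -0.91 to 0.12), and the second probe gave -0.45 and -0.56. The Thoc2 difference of 0.21 was below 0 with normexp background correction and with the second probe.

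Lef1 was at 1.83 and 1.04 under NT, 1.54 and 1.22 under Thoc2 siRNA, and 1.31 and 1.31 under Thoc5 siRNA, all within the range of the NT arrays. Its differences were -0.06 (95% interval -0.89 to 0.78) and -0.13 (-0.96 to 0.70), and a second probe gave 0.07 and 0.26. Tcf7l2 was at -1.77 and -1.37 under NT, -1.26 and -1.59 under Thoc2 siRNA, and -1.51 and -1.29 under Thoc5 siRNA. Its differences were 0.14 (-0.47 to 0.75) and 0.17 (-0.44 to 0.78). Of its other probes 2 were tested, and they gave 0.46 and -1.11, and -0.02 and -0.07.

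Over the 39 tested genes, 12 had an unadjusted limma p under 0.05 with Thoc2 siRNA (30.8%, beside 14.6% of all tested genes), 8 higher and 4 lower. With Thoc5 siRNA there were 13 (33.3%, beside 19.5%), 7 higher and 6 lower. Of these 7, Dkk4 was not well above background in either group. Between the knockdowns there were 8 (20.5%, beside 9.18%), of which Wnt9a, Wnt10a and Wnt3 were higher with Thoc5 siRNA (2.2% of all tested genes were) and Wnt8b, Dkk4, Sfrp1, Dkk3 and Tcf7l1 lower. Wnt8b and Dkk4, also counted as higher with Thoc2 siRNA, entered the test through their Thoc2 arrays alone. For both knockdowns taken as a mean against NT there were 12, beside 19.3% of all tested genes, 6 higher (beside 8.84%) and 6 lower (beside 10.4%).

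Counted by arrays, 6 genes were higher on all 4 knockdown arrays than on both NT arrays (Wnt6, Wnt10a, Wnt3, Wnt4, Fzd5 and Dkk4) and 7 were lower (Lrp5, Fzd9, Fzd10, Sfrp4, Sfrp2, Dkk3 and Tcf7). Fzd10 counts here by its brighter probe alone, its other probe having the opposite sign, and Dkk4 counts although its NT and Thoc5 signals were not well above background and so have no order. Of all tested genes 14.2% were higher and 16.3% lower by that count, so the members' 15.4% and 17.9% lie near the background. The median difference of the 39 was 0.02 with Thoc2 siRNA and -0.03 with Thoc5 siRNA, beside 0.06 and -0.09 over all tested genes.

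**Figure D5:**
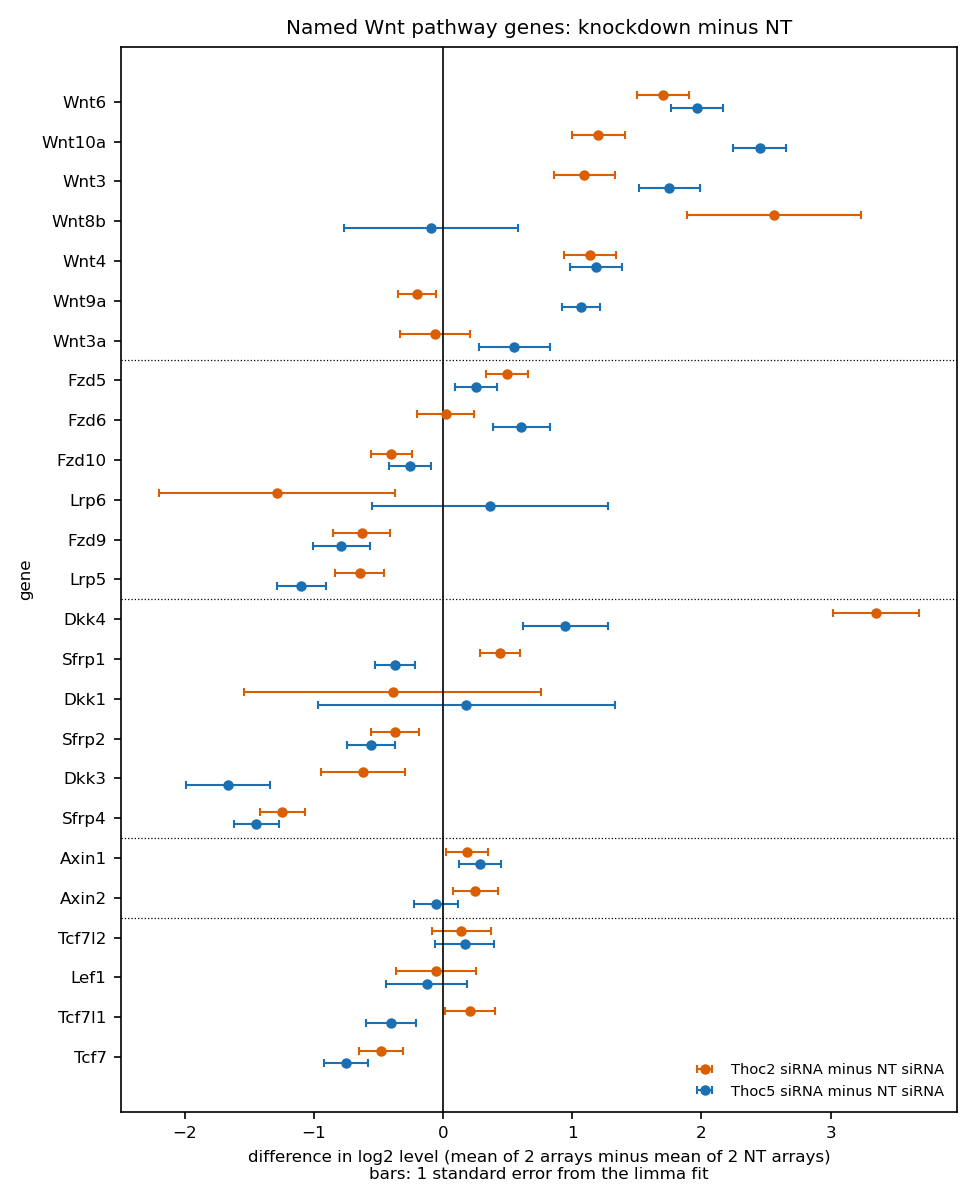
Difference in log2 level from NT siRNA for the 25 members that the naming rule selected, with Thoc2 siRNA in orange and Thoc5 siRNA in blue, bars of 1 standard error of the limma fit, and dotted lines between ligands, receptors, inhibitors, Axin genes and TCF/LEF factors. Wnt10a with Thoc5 siRNA (2.45) lies furthest right among genes well above background in all groups, and Sfrp4 (-1.24 and -1.45) is lower in both. The Dkk4 values include groups not well above background.

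Some members passed the threshold under 2 other settings of the same limma test. Among the 15098 genes well above background on all arrays, 7 of the 30 members there passed with Thoc5 siRNA, beside 3.62% of those genes. Wnt10a, Wnt3, Wnt4, Wnt6 and Wnt9a were higher (beside 1.6%), and Lrp5 and Sfrp4 lower (beside 2.03%). Their limma adjusted p-values ran from 0.036 to 0.0465. When limma was given an intensity trend and robust variances, 4 of 39 passed with Thoc5 siRNA (Wnt10a, Wnt6, Lrp5 and Sfrp4), beside 3.41% of all tested genes, and 0 of 39 with Thoc2 siRNA, beside 0.0155%.

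Compared on the same slide, where 1 NT array shared a slide with 1 Thoc2 array and the other with 1 Thoc5 array, most but not all differences had the direction of the fit. The sign was the same for 32 of the 39 tested members with Thoc2 siRNA and for 30 with Thoc5 siRNA. These arrays are also part of the fit, so agreement in sign is largely built in, above all for large fitted differences. Of the differences of at least 1 in size in the fit, 10 of 10 and 8 of 9 kept their sign, and the exception was Wnt9b with Thoc5 siRNA, at -1.53 in the fit and 0.76 within the slide. Fzd7 with Thoc2 siRNA turned from -0.68 to 0.54, and Lrp6 went from -1.28 to -0.02. With Thoc5 siRNA 28 of the 39 lay above 0 within the slide, against 19 in the fit. Within its slide Wnt6 differed by 1.999 and 1.90, Wnt10a by 1.47 and 2.35, Wnt3 by 0.68 and 2.04, and Wnt4 by 0.85 and 1.46 (Thoc2 and Thoc5 siRNA). Lrp5 differed by -0.63 and -0.86, Sfrp4 by -1.41 and -1.48, and Tcf7 by -0.59 and -0.81. The Wnt3 difference with Thoc2 siRNA was thus smaller on the shared slide than over both slides (1.09).

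Of the genes that make, release or inactivate Wnt, Porcn and Notum were lower and Wls higher in both knockdowns, none of them past the threshold. Porcn, the acyltransferase that adds the lipid to Wnt, was at 0.68 and 0.66 under NT, -0.02 and -0.15 under Thoc2 siRNA, and -0.66 and -0.25 under Thoc5 siRNA. All 4 knockdown arrays lay below NT, by 0.76 ± 0.19 and 1.13 ± 0.19 in size (limma adjusted p = 0.246 and 0.106). Notum, which removes that lipid outside the cell, was lower by 0.68 and 0.67 in size, and Wls, which carries Wnt to the cell surface, was higher by 0.57 and 0.64, also without overlap with NT. Of this list of 3, 2 were lower at an unadjusted limma p under 0.05 with Thoc2 siRNA and 1 with Thoc5 siRNA (beside 6.55% and 12.1% of all tested genes).

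Of 15 receptor partners 11 were tested, and 7 lay below 0 with Thoc2 siRNA and 9 with Thoc5 siRNA (medians -0.09 and -0.37). With Thoc2 siRNA 1 was higher and 1 lower at an unadjusted limma p under 0.05 (beside 8.07% and 6.55% of all tested genes), and with Thoc5 siRNA 1 was higher and 2 lower (beside 7.44% and 12.1%). Ptk7, a co-receptor of the planar polarity branch, was higher by 0.56 ± 0.25 and 1.11 ± 0.25, and Kremen1, which works with Dkk proteins at LRP receptors, by 0.63 ± 0.20 and 0.52 ± 0.20. Rspo1, a secreted protein that strengthens Wnt signalling, was at 1.97 and 1.89 under NT, 1.54 and 1.68 under Thoc2 siRNA, and 1.14 and 1.20 under Thoc5 siRNA, in 3 groups without overlap. Rnf43, a ubiquitin ligase that removes Frizzled receptors, was lower by 1.13 ± 0.27 and 0.56 ± 0.27 in size. Of 6 further inhibitors 4 were tested, and Apcdd1, a membrane inhibitor, was higher by 1.36 ± 0.18 and 0.65 ± 0.18 (limma adjusted p = 0.209 and 0.175).

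Inside the cell, all 20 listed genes of the relay were tested, and 0 were higher and 2 lower at an unadjusted limma p under 0.05 with Thoc2 siRNA (beside 8.07% and 6.55% of all tested genes), and 1 higher and 2 lower with Thoc5 siRNA (beside 7.44% and 12.1%), which is near the background. Ctnnb1, which encodes beta-catenin itself, was at 4.51 and 4.46 under NT, 4.23 and 4.12 under Thoc2 siRNA, and 4.13 and 4.01 under Thoc5 siRNA. Its mRNA was lower on all 4 knockdown arrays by small amounts, 0.31 ± 0.14 and 0.41 ± 0.14 in size. Nkd1 and Nkd2, which bind Dishevelled and dampen signalling, were lower by 0.61 and 0.46 and by 1.31 and 1.35 in size, where Nkd2 was read on 1 Thoc2 array because the spot on the other was dropped. Of 13 nuclear partners 5 lay above 0 with Thoc2 siRNA and 6 with Thoc5 siRNA. At an unadjusted limma p under 0.05, 0 of the 13 were higher in either knockdown, and 2 were lower with Thoc2 siRNA and 1 with Thoc5 siRNA (beside 6.55% and 12.1% of all tested genes). Ctnnbip1, an inhibitor of the contact between beta-catenin and TCF, was lower by 0.71 ± 0.15 and 0.72 ± 0.15 in size.

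Of 14 textbook targets of beta-catenin, 11 were tested, and 6 lay above 0 with Thoc2 siRNA and 5 with Thoc5 siRNA. At an unadjusted limma p under 0.05, 2 were higher and 4 lower with Thoc2 siRNA (beside 8.07% and 6.55% of all tested genes), and 1 higher and 1 lower with Thoc5 siRNA (beside 7.44% and 12.1%). Sp5, a transcription factor that Wnt induces, was at 0.48 and 1.11 under NT, 2.16 and 1.64 under Thoc2 siRNA, and 1.54 and 1.77 under Thoc5 siRNA, above NT on all 4 knockdown arrays. Cdx2 was higher by 0.97 ± 0.30 and 0.52 ± 0.30. Ccnd1, which encodes cyclin D1, was lower by 0.63 ± 0.15 and 0.46 ± 0.15 in size, as were Notum, Nkd1 and Rnf43 above. The targets thus held members on both sides of 0.

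The arrays themselves differed in brightness. The share of spots well above background ran from 56.7% to 79.7%, lowest on array 1 of Thoc5 siRNA, and array 1 of Thoc2 siRNA had 880 outlier spots against 63 to 155 elsewhere and was scanned on another day. That array gave the single low Lrp6 and Fzd7 values. All 7 ES cell markers (Pou5f1, Sox2, Nanog, Zfp42, Esrrb, Klf4 and Tdgf1) were well above background on every array. Their summed linear level was 406 and 397 under NT, 316 and 341 under Thoc2 siRNA, and 324 and 271 under Thoc5 siRNA. Of the 7, 4 (Pou5f1, Sox2, Zfp42 and Esrrb) were lower than NT on all 4 knockdown arrays, where 16.3% of all tested genes were. Pou5f1, a core pluripotency factor, differed by -0.42 and -0.88 (limma adjusted p = 0.444 and 0.151). The part of this in the members' values was not tested. With 2 arrays a group the smallest p of an exact permutation test is 0.333, so no single gene was tested that way.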

How the data were processed

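The scanner files of the 6 arrays and a series table were used. Per the file headers, each scanner file gives processed signal intensities of its spots after background subtraction, with mean and local background intensities. The headers name Feature Extraction 9.5.3.1, and the submitters' processing notes name version 11.0. The deposited series table holds log2 values sharing 1 set of quantiles, with a median of 5.82 on every array. No header states how it was made. Its rank correlation with the processed signal was 1 on each array, and it served as an alternative.

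Levels are log2 processed signal minus the array's 75th percentile over non-control spots, with outlier-flagged spots left out. A gene was its brightest probe under the name in the files, tested if well above background (at least 0.5 of its spots) on every array of at least 1 group. Of 41174 probes a RefSeq table on GRCm38.p6 named 23082 through their accession, 6582 through a symbol in use and 3073 through an older one, and 8437 kept the name in the files. Probe coordinates are those of mm7 in the files.

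In R 4.3.3 limma 3.58.1 (lmFit, eBayes) was fitted to all 6 arrays with 3 residual and 1.50 prior degrees of freedom, two-sided, with Benjamini-Hochberg adjustment over all 19417 genes in each comparison and a threshold of 0.05. The fit was tested on simulated data. Of the tested genes 280 lacked a value on an array. The number of arrays limits the precision. Genes given array by array had an unadjusted p under 0.05 in a comparison, lay outside NT on all 4 knockdown arrays, had the highest mean level of their role (a choice of probe, not a ranking of amounts), or were Axin2, Lef1, Tcf7, Tcf7l1, Tcf7l2, Lrp5, Lrp6, Dkk1, Wnt3 or Wnt3a. Fzd7 was added after its values were seen. The members, pathway lists and markers were chosen with earlier results of these data known. Alternatives were other scalings, normexp correction (offset 50), the series table, other filters, each probe alone, a trend with robust variances, slide and replicate blocks, and leaving out each array.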

Additional observations from a re-analysis of the deposited data

Results flagged for a closer look

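Wnt9a and Sfrp1 were flagged because both arrays of one knockdown lay above both NT arrays and both arrays of the other lay below them. The share of all tested genes with that order was not counted, so it is a description. The differences below come from the same arrays and are no separate support. For Wnt9a, Thoc5 siRNA exceeded Thoc2 siRNA by 1.27 ± 0.15 on the log2 scale (SE of the limma fit), and the test of that difference gave a limma adjusted p of 0.413. For Sfrp1 the difference of Thoc5 from Thoc2 siRNA was -0.81 ± 0.16, with a limma adjusted p of 0.448. Neither passed the threshold of 0.05. The second Wnt9a probe, well above background on 1 of 6 arrays, was not tested, while the second Sfrp1 probe gave -0.95 for its difference. The sign of the Wnt9a difference between Thoc2 siRNA and NT was the opposite with normexp background correction, while the Sfrp1 signs against NT were kept under all settings run.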

How the results depend on the processing

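Under the settings run, 0 genes passed the threshold in every comparison except with 2 choices. With an intensity trend and robust variances 3 genes passed with Thoc2 siRNA, 662 with Thoc5 siRNA and 640 for the mean of both, and among genes well above background on all arrays 547 and 464 passed with Thoc5 siRNA and for the mean. Normexp background correction put 29 of 39 members above 0 with Thoc5 siRNA (19 as designed), moved the median of all genes by 0.23 (Thoc2 siRNA), 0.33 (Thoc5 siRNA) and 0.28 (mean), and turned Dkk3 to 0.50 with Thoc5 siRNA and 0.64 for the mean. The cause was not tested. Of genes with an unadjusted p under 0.05, the higher share was 55.2% with Thoc2 siRNA (38.2% with quantile normalization), 38.1% with Thoc5 siRNA (51.7% with normexp), 24.0% between the knockdowns (55.2% with quantile normalization) and 45.8% for the mean (59.0% with normexp). Members with an unadjusted p under 0.05 kept their direction under all settings in 12 of 12 (Thoc2 siRNA), 12 of 13 (Thoc5 siRNA) and 8 of 8 (between the knockdowns) cases. The p of Wnt6, Wnt10a and Sfrp4 stayed under 0.05 in both knockdowns in all 16 tests run, and that of Wnt3 with Thoc5 siRNA. The labels do not say whether the replicate numbers pair the arrays. With a replicate block 0 genes passed in each comparison, as in the main fit, so that count cannot tell. Same-numbered NT and Thoc2 arrays deviated with a correlation of -0.20, NT and Thoc5 arrays with 0.14, and Thoc2 and Thoc5 arrays with 0.22. With 2 arrays a group these values do not settle it either. A block with the numbers crossed, chosen after seeing the data, also gave 0 for Thoc2 siRNA against NT, the comparison it was run for. Dim probes limit the precision, since 9 of the 39 tested members were not well above background on some arrays.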
